A study of Homo sapiens with 20 samples.

Results

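The genes described here are the tetraspanin family as an Affymetrix 3′ expression array reads it in prostate cancer cells. They were chosen by name: every gene whose symbol begins with TSPAN, together with CD9, CD37, CD53, CD63, CD81, CD82 and CD151, provided that a probe set of the array names that gene alone. This gave 29 of 19775 genes, read by 56 of 54675 probe sets. Of these, 28 encode tetraspanin proteins. The other, TSPAN16-AS1, is a noncoding RNA antisense to TSPAN16 that shares the symbol and encodes no tetraspanin. For the 18 genes with more than 1 probe set, the brightest by its mean over all 20 arrays stood for the gene, so measured values chose the probe set and not the gene.

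Tetraspanins are small proteins with several membrane-spanning helices that bind each other and gather partner proteins, chiefly integrins, immunoglobulin-type receptors and membrane proteases, into patches of the cell surface. A subset, the TspanC8 proteins, escorts the protease ADAM10 to the surface and influences which substrates it cuts. Others ride on late endosomes and extracellular vesicles, and CD82, first described as KAI1, is known as a suppressor of metastasis in prostate cancer.

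The human prostate cancer lines were LNCaP, which responds to androgen, and C42B, a castration-resistant line derived from LNCaP. C42B cells received an siRNA against LSD1 (siLSD1) or the control siRNA labelled siNTC for 6 h, followed by 96 h in medium with 10% CSS (3 arrays each). LNCaP cells received siLSD1 or siNTC at 50 nM and spent 96 h in medium with 10% FBS (3 arrays each, RNA of a pair of wells pooled for each). A further experiment held C42B cells in CSS for 72 h before 100 nM of the androgen DHT, or ethanol as vehicle, was added for 16 h (4 arrays each). LSD1, encoded by KDM1A, removes methyl groups from histone lysines and acts with the androgen receptor among other factors. Line, serum and experiment differ together between the siRNA experiments, and siLSD1 is 1 label in each line, so an effect of the siRNA sequence and an effect of lower LSD1 cannot be told apart. The C42B replicates are separate wells and nothing says that they were independent cultures, so the p-values cover no more than the spread among these arrays.

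Deposited intensities were taken to log2, and array medians ranged from 5.98 to 6.03 in LNCaP, from 6.29 to 6.34 in the siRNA arrays of C42B and from 6.39 to 6.43 in the androgen arrays. Levels were therefore compared within an experiment only. A group mean under 6 is called dim: 19 of the 29 genes were bright in all 6 groups, 8 were dim in some and 2 (TSPAN2 and TSPAN16-AS1) in all. KDM1A had a mean of 7.88 ± 0.12 (SD) over the 3 siLSD1 arrays of C42B, against 10.29 ± 0.08 over the siNTC arrays (limma log2 fold change −2.40 ± 0.08, adjusted p = 1.2e-05). LNCaP gave 7.30 ± 0.09 over its siLSD1 arrays, against 10.08 ± 0.14 over its siNTC arrays (−2.78 ± 0.08, adjusted p = 2.4e-06). The difference between the 3′ and 5′ signals of the actin control, which reflects RNA quality and labelling, overlapped between the groups of every experiment. The 7 of 9 luminal prostate markers with values were bright in all groups, and of 6 leukocyte markers 4 were dim in all groups and none passed in any comparison. Of 3 endothelial markers 2, PECAM1 and VWF, were bright in all groups, 1 was dim in all, and none passed. Of 4 stromal markers 2 were bright in all groups and 1 was dim in all. The summed log2 level of 4 stromal markers did not overlap between groups in LNCaP (26.9 to 27.5 with siLSD1, 28.3 to 28.9 with siNTC) or with DHT (26.5 to 27.2 with DHT, 27.7 to 29.2 with vehicle). The list did not move as a set. In LNCaP, COL3A1 and ACTA2 fell (−0.77 and −0.66), while COL1A1 (0.08) and COL1A2 (−0.005) did not pass. With DHT, COL3A1 alone passed (−1.60), and COL1A1, COL1A2 and ACTA2 changed by −0.04, 0.30 and −0.19. The part of these shifts in the results below was not tested.

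The first comparison asks which tetraspanin transcripts differ when LSD1 is targeted. In C42B, 8 of the 29 genes rose and 1 fell with siLSD1 at a limma adjusted p under 0.05 over all genes, where 8.66% of all genes rose and 9.39% fell. In LNCaP, 8 rose and 2 fell, where 13.4% of all genes rose and 12.5% fell. In either direction 31.0% of the members were called in C42B, against 18.0% of all genes, and 34.5% in LNCaP, against 25.9%. Every siLSD1 array lay above every siNTC array for 10 members in C42B (16.3% of all genes) and for 13 in LNCaP (20.6%), and below for 2 (19.9%) and 3 (19.5%). The median change over the 29 members was 0.02 on the log2 scale in C42B, against −0.02 over all genes, and 0.14 in LNCaP, against 0.01. These are amounts of RNA in a whole culture, so fewer cells of a kind and less RNA per cell cannot be told apart.

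**Figure D1:**
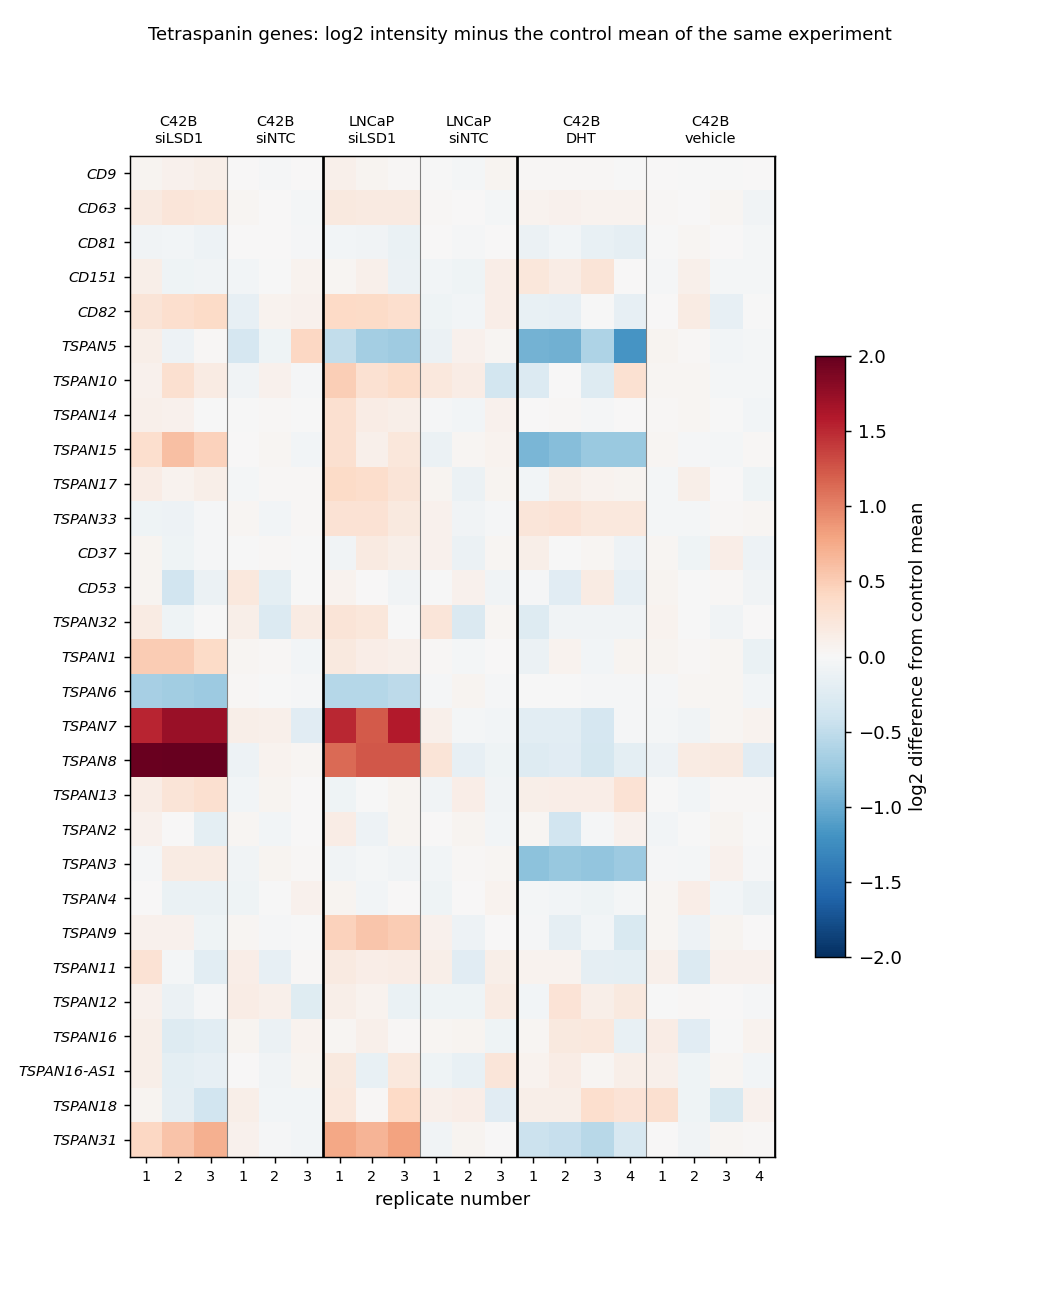
Log2 intensity of each of the 29 genes in each of the 20 arrays, minus the mean of the control arrays (siNTC or vehicle) of the same experiment. Red is above and blue below that mean. TSPAN7 and TSPAN8 are red in all siLSD1 arrays of both lines, TSPAN6 is blue in them, and TSPAN3, TSPAN5 and TSPAN15 are blue in all 4 DHT arrays.

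Across the lines, 5 tetraspanin genes rose with siLSD1 in both (TSPAN8, TSPAN7, TSPAN31, CD82 and CD63), and 1, TSPAN6, fell in both. Over all genes, 5.29% rose in both and 5.64% fell in both. No member was called in opposite directions in the lines.

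TSPAN8, a surface protein known as a tumour antigen of digestive tract cancers, had log2 intensities of 6.66, 6.68 and 6.68 in C42B with siLSD1, against 4.58, 4.75 and 4.72 with siNTC. Because the control arrays were dim, the rise is given as at least 0.67 on the log2 scale, counted from 6 (limma adjusted p = 1.1e-05). In LNCaP, where both groups were bright, it was 8.28, 8.40 and 8.39 with siLSD1, against 7.40, 6.99 and 7.06 with siNTC. The groups did not overlap in either line. The LNCaP rise was 1.20 ± 0.11 on the log2 scale (SE, adjusted p = 1.1e-04), and 1 probe set read the gene. In its promoter window below, capitals mark the only copy of AGAACA or TGTTCT, the half-site of the androgen receptor motif spelled on each strand. A second TSPAN8 window holds none.
TSPAN8 promoter, chr12:71157950-71158249, minus strand: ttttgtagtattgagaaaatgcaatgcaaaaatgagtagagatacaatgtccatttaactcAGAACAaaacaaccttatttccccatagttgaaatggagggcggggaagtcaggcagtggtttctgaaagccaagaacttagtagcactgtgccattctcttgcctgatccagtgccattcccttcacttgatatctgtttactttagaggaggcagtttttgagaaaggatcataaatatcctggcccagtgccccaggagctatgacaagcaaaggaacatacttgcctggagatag

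TSPAN7, a tetraspanin of neurons whose mutation causes X-linked intellectual disability, had 7.45, 7.65 and 7.65 in C42B with siLSD1, against 6.04, 6.03 and 5.71 with siNTC. In LNCaP it had 7.39, 7.12 and 7.47 with siLSD1, against 5.99, 5.85 and 5.84 with siNTC. Every siLSD1 array stood more than 1 log2 unit above every siNTC array of its line. Both control means were dim, so the rise was at least 1.58 in C42B (limma adjusted p = 2.1e-04) and at least 1.33 in LNCaP (adjusted p = 3.0e-05). Like TSPAN8, it was read by 1 probe set.

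TSPAN31, also known as SAS from its amplification in sarcomas, lies beside the cell-cycle kinase gene CDK4 on chromosome 12 and overlaps it on the opposite strand in RefSeq. It had 9.96, 10.11 and 10.26 in C42B with siLSD1, against 9.63, 9.52 and 9.48 with siNTC. In LNCaP it had 10.27, 10.18 and 10.30 with siLSD1, against 9.44, 9.56 and 9.51 with siNTC. Both lines separated completely, with rises of 0.57 ± 0.08 in C42B (48.3%, limma adjusted p = 0.0041) and 0.75 ± 0.06 in LNCaP (68.1%, adjusted p = 8.2e-05). The second probe set of TSPAN31 rose as well, by 0.42 in C42B and 0.53 in LNCaP. CDK4 went the other way: it fell by 0.31 in C42B (adjusted p = 0.0049) and by 0.58 in LNCaP (adjusted p = 2.1e-04), and whether the overlap plays a part was not tested. The promoter window of TSPAN31, shown because the gene was called in all 3 experiments, holds no half-site.
TSPAN31 promoter, chr12:57744789-57745088, plus strand: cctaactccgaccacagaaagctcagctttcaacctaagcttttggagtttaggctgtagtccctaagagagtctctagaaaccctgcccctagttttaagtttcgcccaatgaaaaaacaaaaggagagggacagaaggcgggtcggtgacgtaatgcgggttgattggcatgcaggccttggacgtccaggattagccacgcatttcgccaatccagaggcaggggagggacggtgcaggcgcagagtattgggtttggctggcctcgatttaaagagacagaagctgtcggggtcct

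CD82, the metastasis suppressor, had 8.42, 8.50 and 8.54 in C42B with siLSD1, against 7.99, 8.23 and 8.25 with siNTC. In LNCaP it had 8.78, 8.76 and 8.71 with siLSD1, against 8.30, 8.32 and 8.52 with siNTC. One siNTC array stood apart from its group in each line, low in C42B and high in LNCaP, but no groups overlapped. The rises were 0.33 ± 0.08 in C42B (25.5%, limma adjusted p = 0.027) and 0.37 ± 0.07 in LNCaP (29.5%, adjusted p = 0.0060). The C42B call was lost without siLSD1 replicate 2, siLSD1 replicate 3 or siNTC replicate 1 (highest adjusted p = 0.098), and the dimmer second probe set did not pass in either line (0.20, adjusted p = 0.13 in C42B and 0.21, adjusted p = 0.30 in LNCaP).

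CD63, the tetraspanin of late endosomes, lysosomes and extracellular vesicles, moved less. It had 12.70, 12.76 and 12.74 in C42B with siLSD1, against 12.54, 12.51 and 12.47 with siNTC, and 12.16, 12.14 and 12.15 in LNCaP with siLSD1, against a mean of 11.97 ± 0.03 with siNTC (SD, n = 3). The groups separated in both lines, with rises of 0.22 ± 0.05 (16.7%, limma adjusted p = 0.019) and 0.18 ± 0.05 (13.4%, adjusted p = 0.039). The C42B call was lost without siLSD1 replicate 2 or 3 or siNTC replicate 2 or 3, and the LNCaP call without any single array except siNTC replicate 1 (highest adjusted p of 0.077 and 0.11). With the replicate block the C42B call was lost as well, and the LNCaP call was lost with that block, quantile normalization, median centring and the fit of every probe set, 9 of 15 alternatives in all. Its companions on vesicles did not pass: CD9 changed by 0.08 in C42B and 0.06 in LNCaP (adjusted p = 0.28 and 0.51), and CD81 by −0.07 and −0.08 (adjusted p = 0.33 and 0.32). The groups still did not overlap for CD9 in C42B or for CD81 in either line. CD9 passed in C42B under a robust eBayes with a trend (adjusted p = 0.040).

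TSPAN6, described as a brake on RIG-I-like receptor signalling, was the single member that fell in both lines. It had 9.38, 9.34 and 9.32 in C42B with siLSD1, against 10.07, 10.04 and 10.02 with siNTC, and 8.38, 8.37 and 8.42 in LNCaP with siLSD1, against 8.92, 9.00 and 8.93 with siNTC. Replicates lay within 0.1 of each other and the groups were far apart. The changes were −0.70 ± 0.05 in C42B (−38.2%, limma adjusted p = 2.7e-04) and −0.56 ± 0.06 in LNCaP (−32.1%, adjusted p = 1.9e-04), and its second probe set fell by 0.55 in C42B and by 0.50 in LNCaP.

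**Figure D2:**
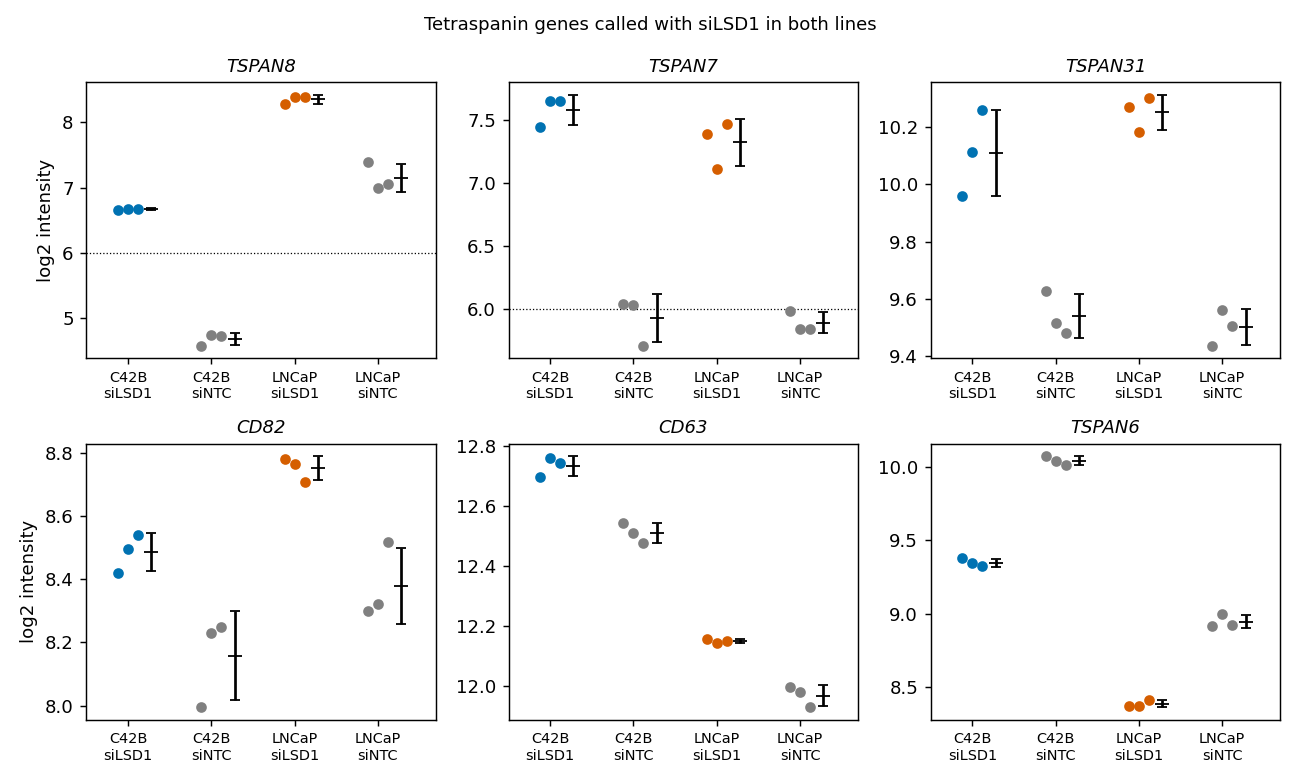
Log2 intensity (vertical axis) of the 6 tetraspanin genes called with siLSD1 in both lines, 1 point per array, siLSD1 left of siNTC within each line; bars show the mean and SD of 3 arrays, and the dotted line marks the dim limit of 6. TSPAN8, TSPAN7, TSPAN31, CD82 and CD63 lie higher with siLSD1 and TSPAN6 lower, with no overlap within a line.

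Other members passed in 1 line and not in the other. The difference between the siLSD1 effects was tested over the 12 siRNA arrays, C42B effect minus LNCaP effect. It passed for 4 of the 29 genes, 2 in each direction, where 5.56% of all genes were higher and 6.07% lower.

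TSPAN1, a tetraspanin of secretory epithelia, was higher in C42B. It had 10.30, 10.29 and 10.17 with siLSD1, against 9.83, 9.81 and 9.73 with siNTC, a rise of 0.46 ± 0.06 (37.9%, limma adjusted p = 0.0023). In LNCaP it had 10.19, 10.13 and 10.10 with siLSD1, against 10.02, 9.96 and 10.01 with siNTC, which separated but did not pass (0.14 ± 0.06, adjusted p = 0.11). The effects differed by 0.32 ± 0.08 (adjusted p = 0.018, and 0.052 without C42B siLSD1 replicate 2). POMGNT1, which overlaps TSPAN1 on the opposite strand in RefSeq, changed by 0.23 in C42B (adjusted p = 0.090) and rose by 0.27 in LNCaP (adjusted p = 0.013). The promoter window of TSPAN1 holds 1 half-site, in capitals, with its first base at −189 from the start site, the same position as in the TSPAN8 window.
TSPAN1 promoter, chr1:46174837-46175136, plus strand: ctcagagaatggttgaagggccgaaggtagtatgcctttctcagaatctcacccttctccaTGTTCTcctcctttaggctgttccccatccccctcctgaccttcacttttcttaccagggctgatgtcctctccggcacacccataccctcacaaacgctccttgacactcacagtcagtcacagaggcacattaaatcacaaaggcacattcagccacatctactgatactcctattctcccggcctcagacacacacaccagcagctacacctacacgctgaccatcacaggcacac

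TSPAN9, a tetraspanin of platelets, stood out in LNCaP with 9.53, 9.61 and 9.58 with siLSD1, against 9.15, 8.97 and 9.07 with siNTC. C42B arrays gave 9.12, 9.13 and 8.95 with siLSD1, against 9.07, 9.01 and 9.02 with siNTC, which overlapped. The changes were 0.51 ± 0.07 in LNCaP (42.5%, limma adjusted p = 7.7e-04) and 0.03 ± 0.06 in C42B (adjusted p = 0.79), and they differed by −0.48 ± 0.09 (adjusted p = 0.0051). The second probe set did not pass in LNCaP (0.15, adjusted p = 0.14) or for the difference (−0.07, adjusted p = 0.69). Averaged over both probe sets, the LNCaP rise was 0.33 and the difference −0.28. With DHT the second probe set fell by 0.25 (adjusted p = 0.0037), and the brightest changed by −0.14 (adjusted p = 0.16).

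For TSPAN8 the fitted effects also differed, by 0.79 ± 0.13 (limma adjusted p = 0.0022), with 1.99 in C42B and 1.20 in LNCaP. The C42B effect rests on dim control arrays, and counted from 6 it is at least 0.67, so which line had the larger rise is not settled. TSPAN7 and TSPAN31, whose rises were called in both lines, gave differences of 0.22 ± 0.15 (adjusted p = 0.41) and −0.18 ± 0.11 (adjusted p = 0.32).

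The TspanC8 genes share ADAM10 as their partner. Of these 6, TSPAN15 was called with siLSD1 in C42B, TSPAN5, TSPAN17 and TSPAN33 were called in LNCaP, and the difference between the lines passed for TSPAN33 alone. TSPAN15, known for directing ADAM10 to N-cadherin, had 9.78, 10.03 and 9.90 in C42B with siLSD1, against 9.45, 9.47 and 9.38 with siNTC, a rise of 0.47 ± 0.07 (38.3%, limma adjusted p = 0.0049). In LNCaP it had 8.50, 8.29 and 8.42 with siLSD1, against 8.07, 8.23 and 8.27 with siNTC, which did not pass (0.21 ± 0.08, adjusted p = 0.086). The groups were apart in both lines, and the difference between the effects was 0.25 ± 0.11 (adjusted p = 0.18).

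TSPAN5, known to promote Notch signalling through ADAM10, fell in LNCaP: it had 7.05, 6.86 and 6.84 with siLSD1, against 7.43, 7.63 and 7.58 with siNTC (−0.63 ± 0.08, −35.3%, limma adjusted p = 7.7e-04). All 3 of its probe sets fell in LNCaP, by 0.63, 0.41 and 0.34. In C42B it had 7.28, 7.07 and 7.20 with siLSD1, against 6.84, 7.08 and 7.58 with siNTC, a wide control spread that the siLSD1 arrays fell inside (0.02 ± 0.17, adjusted p = 0.96). The difference between the effects was 0.64 ± 0.21 (adjusted p = 0.064), and it passed under 6 alternatives, among them leaving out C42B siNTC replicate 3 (0.85, adjusted p = 0.0029) and averaging its probe sets (0.49, adjusted p = 0.0020).

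TSPAN33, a TspanC8 protein studied in erythroid and B cells, had 8.78, 8.78 and 8.69 in LNCaP with siLSD1, against 8.57, 8.42 and 8.46 with siNTC, a rise of 0.26 ± 0.06 (19.9%, limma adjusted p = 0.017). C42B gave 8.89, 8.87 and 8.94 with siLSD1, against 9.00, 8.91 and 8.99 with siNTC (−0.07 ± 0.05, adjusted p = 0.43). The LNCaP groups separated, the C42B groups overlapped, and the effects differed by −0.33 ± 0.08 (adjusted p = 0.018). The LNCaP call was lost without siLSD1 replicate 1 or 2 or siNTC replicate 2 or 3 (highest adjusted p = 0.071), and the difference was lost without replicate 2 of siLSD1 in either line (highest adjusted p = 0.051).

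TSPAN17 had 9.53, 9.50 and 9.41 in LNCaP with siLSD1, against 9.19, 9.04 and 9.21 with siNTC, a rise of 0.33 ± 0.07 (25.8%, limma adjusted p = 0.0083) that was lost when its probe sets were averaged (0.19, adjusted p = 0.11). In C42B it changed by 0.11 (adjusted p = 0.18), and the difference between the effects was −0.22 (adjusted p = 0.12). TSPAN10 (0.19 in C42B and 0.39 in LNCaP) and TSPAN14 (0.06 and 0.19) completed the TspanC8 group without passing on their brightest probe sets. TSPAN10 passed in LNCaP under 5 alternatives, among them the average of its probe sets (0.44, adjusted p = 0.011) and leaving out siNTC replicate 1 (0.49, adjusted p = 0.043). ADAM10 itself, named here as the shared partner after its values were seen and beyond the limit of 4 partners, changed by −0.06 with siLSD1 in C42B (adjusted p = 0.41) and −0.15 in LNCaP (adjusted p = 0.49), and fell by 0.20 with DHT (adjusted p = 0.0040).

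TSPAN13, which is linked to breast and prostate tumours, had 12.75, 12.86 and 12.92 in C42B with siLSD1, against 12.54, 12.66 and 12.60 with siNTC. The groups separated by less than 0.1, and the rise of 0.24 ± 0.06 (18.3%, limma adjusted p = 0.033) was lost without siLSD1 replicate 2 or 3 or any siNTC array (highest adjusted p = 0.12). In LNCaP it changed by −0.01 (adjusted p = 0.94).

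**Figure D3:**
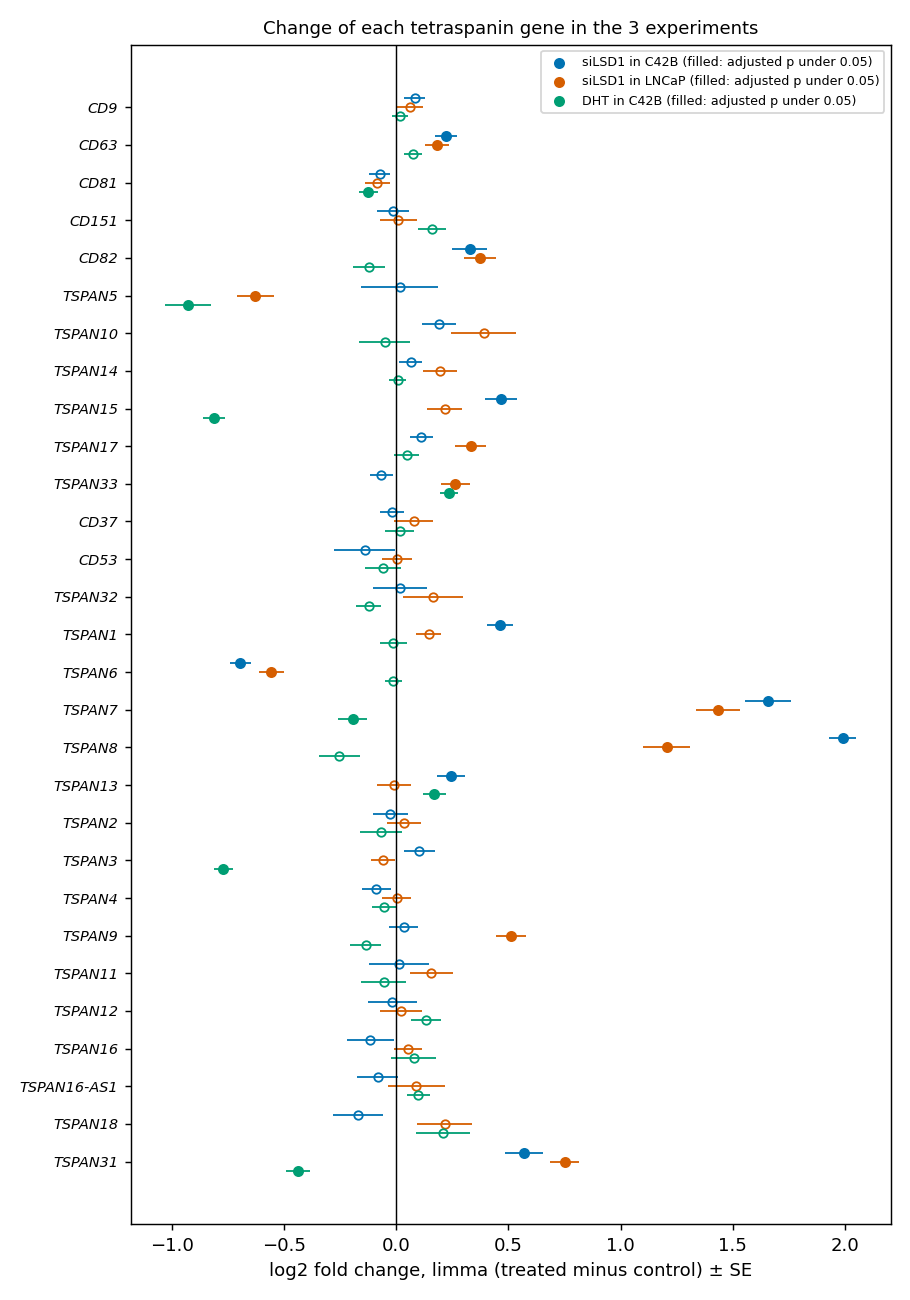
Limma log2 fold change with its SE (horizontal axis) for each of the 29 genes, siLSD1 minus siNTC in C42B (blue) and LNCaP (orange) and DHT minus vehicle in C42B (green); filled points have an adjusted p under 0.05. TSPAN31 and TSPAN15 lie right of 0 with siLSD1 and left of 0 with DHT, and TSPAN8 and TSPAN7 reach the highest siLSD1 values; the C42B values of both and the LNCaP value of TSPAN7 rest on dim controls.

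The androgen experiment asks which tetraspanin transcripts respond to DHT in C42B cells kept in CSS. With DHT, 2 of the 29 genes rose (TSPAN33 and TSPAN13) and 6 fell, TSPAN5, TSPAN15, TSPAN3, TSPAN31, CD81 and TSPAN7, where 13.4% of all genes rose and 19.4% fell. In either direction 27.6% of the members were called, against 32.7% of all genes. All DHT arrays lay above all vehicle arrays for 3 members (14.0% of all genes) and below for 6 (20.6%). The member median was −0.05 on the log2 scale, against 0.01 over all genes. Centring each array on its median turned the split over all genes from 2643 higher and 3827 lower into 4530 higher and 2778 lower. Among the members it gave 6 higher, and the lower calls of CD81 and TSPAN7 were lost. KLK2 and KLK3, secreted proteases driven by the androgen receptor, rose by 5.19 and 2.74. They belong to the luminal list, of whose 7 measured markers 4 rose and 3 fell with DHT. Those that fell were FOLH1 (−0.55), HOXB13 (−0.49) and EPCAM (−0.16).

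TSPAN5 had 6.62, 6.60, 6.94 and 6.38 with DHT, against 7.63, 7.59, 7.51 and 7.53 with vehicle. TSPAN15 had 8.21, 8.26, 8.37 and 8.38 with DHT, against 9.16, 9.10, 9.07 and 9.13 with vehicle. Both TspanC8 genes were lower in every DHT array, by 0.93 ± 0.10 (−47.5%, limma adjusted p = 8.5e-05) and 0.81 ± 0.05 (−43.0%, adjusted p = 1.7e-06). The other probe sets of TSPAN5 fell by 0.84 and 0.63. The promoter windows of both hold no half-site, and that of TSPAN5 holds 50 CpG dinucleotides, against a median of 14 over all promoter windows.
TSPAN5 promoter, chr4:98658562-98658861, minus strand: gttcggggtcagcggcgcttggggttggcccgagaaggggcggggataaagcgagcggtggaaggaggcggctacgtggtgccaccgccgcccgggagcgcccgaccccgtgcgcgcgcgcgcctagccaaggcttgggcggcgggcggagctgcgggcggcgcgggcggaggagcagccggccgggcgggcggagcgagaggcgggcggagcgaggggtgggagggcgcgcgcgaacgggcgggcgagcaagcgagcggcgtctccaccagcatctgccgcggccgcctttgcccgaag
TSPAN15 promoter, chr10:69451215-69451514, plus strand: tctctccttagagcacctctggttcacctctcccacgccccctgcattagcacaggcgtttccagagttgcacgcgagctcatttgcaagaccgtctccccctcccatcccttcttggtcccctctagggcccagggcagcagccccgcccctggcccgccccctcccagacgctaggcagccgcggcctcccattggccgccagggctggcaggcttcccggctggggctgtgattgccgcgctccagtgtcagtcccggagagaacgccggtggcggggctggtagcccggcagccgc

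TSPAN3, a broadly expressed member, had 10.93, 11.00, 10.97 and 11.02 with DHT, against 11.73, 11.72, 11.83 and 11.73 with vehicle. It fell by 0.77 ± 0.04 (−41.4%, limma adjusted p = 8.8e-07), and its second probe set fell by 0.67. Its other 3 probe sets did not pass, and the average over all 5 gave −0.39. With siLSD1 it changed by 0.10 in C42B (adjusted p = 0.37) and −0.06 in LNCaP (adjusted p = 0.50). TSPAN31 had 9.29, 9.25, 9.16 and 9.39 with DHT, against 9.72, 9.64, 9.75 and 9.73 with vehicle, a fall of 0.44 ± 0.05 (−26.3%, adjusted p = 1.8e-04). Its second probe set fell by 0.14, the average of both gave −0.29, and CDK4 changed by 0.02 (adjusted p = 0.78).

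TSPAN33 had 9.34, 9.38, 9.32 and 9.31 with DHT, against 9.07, 9.07, 9.13 and 9.15 with vehicle, and all DHT arrays were higher (0.23 ± 0.04, 17.5%, limma adjusted p = 0.0015). TSPAN13 had 12.88, 12.90, 12.89 and 13.05 with DHT, against 12.76, 12.71, 12.79 and 12.78 with vehicle, where DHT replicate 4 stood above the rest (0.17 ± 0.05, 12.5%, adjusted p = 0.026, and up to 0.070 without vehicle replicate 1 or 2). The window of TSPAN33 holds 1 half-site, in capitals, with its first base at −129 from the start site.
TSPAN33 promoter, chr7:129144457-129144756, plus strand: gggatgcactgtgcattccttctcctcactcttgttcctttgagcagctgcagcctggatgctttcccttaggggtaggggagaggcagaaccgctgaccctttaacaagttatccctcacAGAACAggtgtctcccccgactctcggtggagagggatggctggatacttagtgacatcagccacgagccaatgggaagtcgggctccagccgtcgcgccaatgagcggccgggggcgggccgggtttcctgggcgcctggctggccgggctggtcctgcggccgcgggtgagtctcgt

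CD81, a receptor of hepatitis C virus, had 12.17, 12.24, 12.14 and 12.12 with DHT, against 12.29, 12.33, 12.30 and 12.26 with vehicle. The groups nearly touched, and the fall of 0.13 ± 0.04 (limma adjusted p = 0.047) was lost without any single array except DHT replicate 2 (highest adjusted p = 0.27 over all alternatives, with median centring). TSPAN7 was dim in both groups, with 5.18, 5.18, 5.06 and 5.36 with DHT, against 5.35, 5.33, 5.43 and 5.45 with vehicle. Its groups overlapped and its call (adjusted p = 0.047) was lost without any single array except DHT replicate 4. TSPAN8 was dim in both as well, at 4.20, 4.23, 4.11 and 4.27 with DHT, against 4.35, 4.62, 4.64 and 4.23 with vehicle (adjusted p = 0.060).

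In C42B, TSPAN31, TSPAN15 and TSPAN7 were thus called higher with siLSD1 and lower with DHT, where 3.01% of all genes were. The DHT side of TSPAN7 was dim. These 3 were the only members called in opposite directions, where 4.32% of all genes were opposite in either order. TSPAN13 rose in both experiments, and 5.17% of all genes moved the same way in them. The experiments had separate controls and different times in culture, so the values are given side by side only. CD82, which rose with siLSD1, changed by −0.12 with DHT (adjusted p = 0.23), and TSPAN6, which fell with siLSD1, by −0.01 (adjusted p = 0.81).

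**Figure D4:**
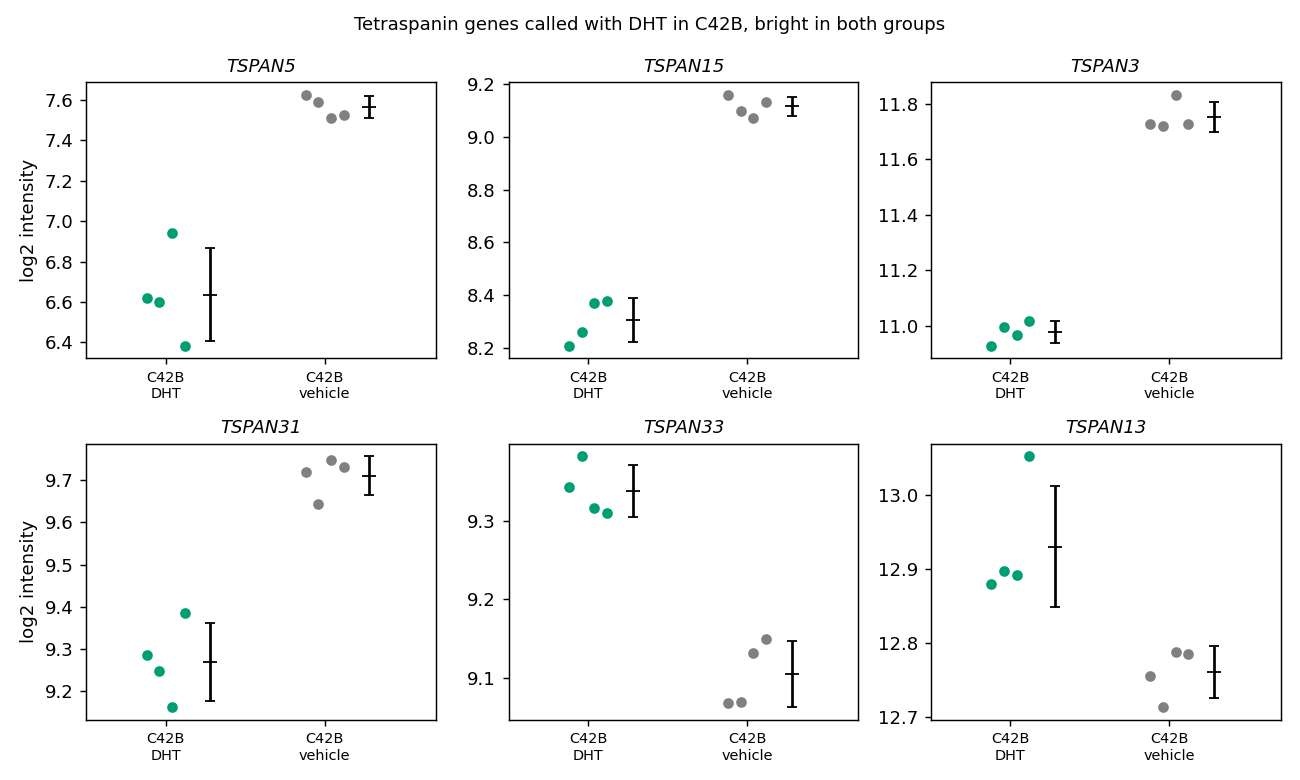
Log2 intensity (vertical axis) of 6 tetraspanin genes called with DHT in C42B and bright in both groups, 1 point per array, DHT left of vehicle; bars show the mean and SD of 4 arrays. TSPAN5, TSPAN15, TSPAN3 and TSPAN31 lie lower with DHT, TSPAN33 and TSPAN13 higher, and no groups overlap.

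Promoter windows, 250 bases before to 50 after a start site on GRCh38.p14, were taken from RefSeq for 20 of the 29 genes, 40 windows in all. The half-site, AGAACA or TGTTCT, occurred in 5 windows of 5 genes: TSPAN1, TSPAN8, TSPAN33, TSPAN14 and TSPAN16. Of 35116 windows of the same length in the table, 14.8% hold it. Among the 5, TSPAN33 was called with DHT, and TSPAN14 and TSPAN16 were called in no comparison. CpG counts in the windows printed above ran from 1 in TSPAN8 and 5 in TSPAN1 to 13 in TSPAN31, 18 in TSPAN33, 20 in TSPAN15 and 50 in TSPAN5.

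In no comparison were 14 of the 29 genes called on the probe set that stood for the gene. Over all genes, 18.0% were called with siLSD1 in C42B, 25.9% in LNCaP and 32.7% with DHT. The share of all genes called in none was not counted, so 14 of 29 is not read as high or low. The 14 were CD9, CD151, TSPAN4, TSPAN10, TSPAN11, TSPAN12, TSPAN14, TSPAN16, TSPAN18, TSPAN2, TSPAN16-AS1 and the leukocyte members CD37, CD53 and TSPAN32. Their changes ran from −0.17 (TSPAN18) to 0.19 (TSPAN10) with siLSD1 in C42B, from 0.00 (CD53) to 0.39 (TSPAN10) in LNCaP and from −0.12 (TSPAN32) to 0.21 (TSPAN18) with DHT. CD9, found on nearly all epithelial cells, had group means of 14.11 with siLSD1 and 14.03 with siNTC in C42B and 13.91 with DHT and 13.89 with vehicle. CD151, which binds laminin-binding integrins, had 10.06, 9.98, 10.08 and 9.84 with DHT, against 9.81, 9.93, 9.80 and 9.79 with vehicle, where the groups overlapped (0.16 ± 0.06, limma adjusted p = 0.082). The call for CD151 was made without DHT replicate 4 (0.21, adjusted p = 0.015) and under 4 other alternatives.

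CD37 and CD53, which mark leukocytes, lay near the dim limit, as did TSPAN32, a member of blood cells. CD37 was 6.26 with siLSD1 and 6.28 with siNTC in C42B, and 5.40 with siLSD1 and 5.33 with siNTC in LNCaP. CD53 was 6.09 with siLSD1 and 6.23 with siNTC in C42B, and 5.82 in both groups of LNCaP. For the 6 leukocyte markers, summed log2 levels ranged from 29.8 to 30.5 in the siLSD1 arrays of C42B, against 30.0 to 30.7 in the siNTC arrays. In LNCaP they ranged from 29.8 to 30.1 in siLSD1 arrays, against 29.6 to 29.9 in siNTC arrays. PTPRC was dim, at 3.87 with siLSD1, against 3.85 with siNTC in C42B, whereas ITGAM lay above the limit there, at 6.36 with siLSD1, against 6.39 with siNTC. CD3E lay above it in the androgen experiment, at 6.99 with DHT, against 6.89 with vehicle.

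For some genes the probe sets disagreed. The second probe set of TSPAN10, known as oculospanin, had 6.18, 6.17 and 6.46 in LNCaP with siLSD1, against 5.90, 5.74 and 5.70 with siNTC, and passed (adjusted p = 0.0069 over all probe sets) where the brightest did not. The groups did not overlap, and the control mean was dim. TSPAN12, which acts with the receptor FZD4 in retinal vessel growth, did not pass in any comparison on its brightest probe set (limma adjusted p = 0.94 with siLSD1 in C42B, 0.90 in LNCaP and 0.17 with DHT). Its dimmest probe set gave 5.94, 5.67 and 6.04 in LNCaP with siLSD1, against 4.89, 4.43 and 4.42 with siNTC, and the remaining one gave 5.59, 5.83 and 5.50 with siLSD1, against 5.31, 4.64 and 4.81 with siNTC. Neither overlapped and both passed among all probe sets (adjusted p = 3.2e-04 and 0.014), but all 4 group means were dim, so no fold is given. Both also passed as higher in C42B (adjusted p = 0.043 and 0.046), and the remaining one passed as lower with DHT (adjusted p = 0.0021). Averaged over its probe sets, TSPAN12 passed in LNCaP (adjusted p = 6.9e-04), in C42B (0.21, adjusted p = 0.024) and with DHT (−0.14, adjusted p = 0.038). The direction with DHT turned with the choice of probe set: the brightest changed by 0.13, and it passed as higher with median centring (0.20, adjusted p = 0.041) and without DHT replicate 1 (0.20, adjusted p = 0.019).

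The dimmer probe set of TSPAN14, a TspanC8 gene, gave 8.38, 8.41, 8.44 and 8.49 with DHT, against 8.06, 8.19, 8.15 and 8.17 with vehicle. It was higher in every DHT array (0.29, adjusted p = 0.0016 over all probe sets), while the brightest one changed by 0.01 (adjusted p = 0.93). It also passed with siLSD1 in C42B (0.23, adjusted p = 0.048) and in LNCaP (0.28, adjusted p = 0.035). Among all probe sets, the dimmer one of TSPAN18 passed as higher with DHT (limma adjusted p = 0.0496). The dimmest one of CD53 passed as lower with siLSD1 in LNCaP (limma adjusted p = 0.037). Both had a mean under 6 over the 20 arrays, so no fold is given. Which transcripts these probe sets read was not examined.

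**Figure D5:**
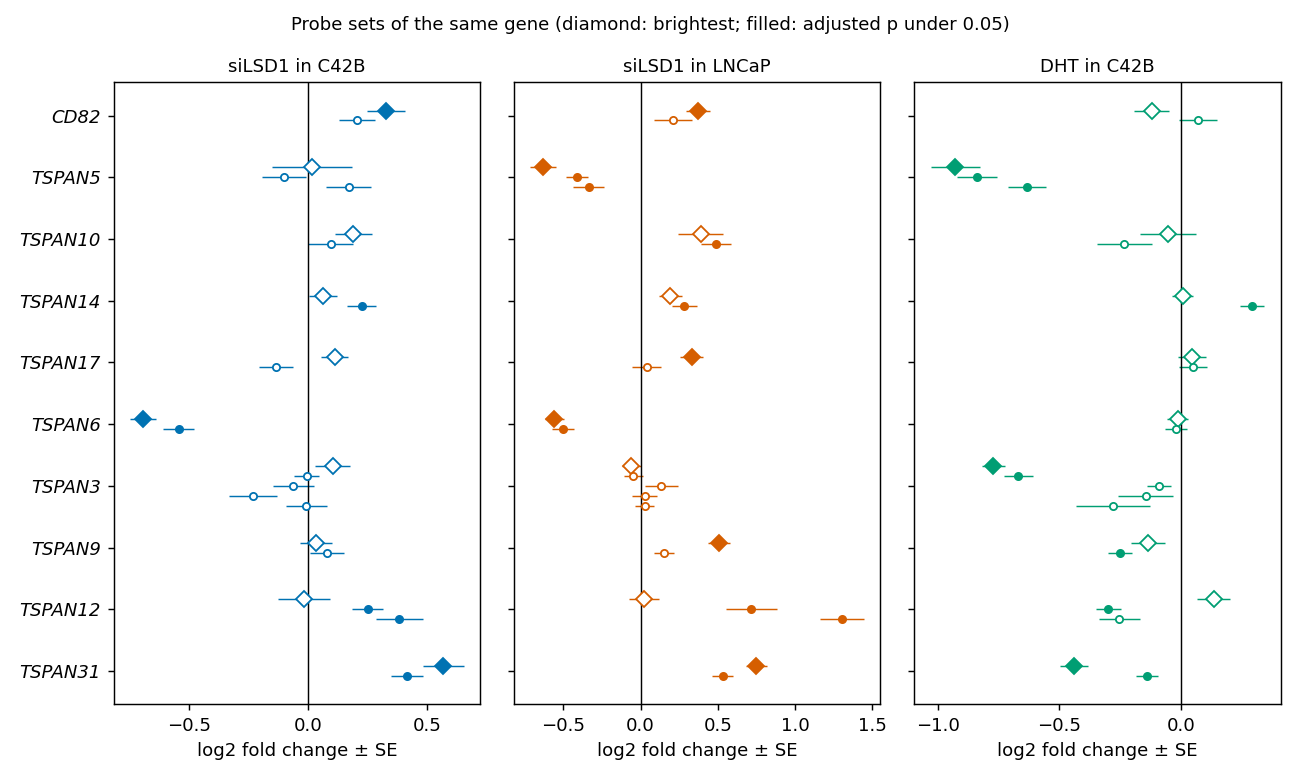
Log2 fold change with SE (horizontal axis) of each probe set of 10 tetraspanin genes, with the brightest as a diamond and the others as circles, in the 3 experiments; filled symbols have an adjusted p under 0.05. The probe sets of TSPAN5, TSPAN6 and TSPAN31 lie on the same side of 0 where the gene was called. Those of TSPAN12 lie on opposite sides with siLSD1 in C42B and with DHT. Those of TSPAN14 lie right of 0 in each experiment, and only the dimmer one is filled.

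Known partners of tetraspanins were taken from a list of 26 genes, of which 25 were measured. With siLSD1, 4 rose and 3 fell in C42B, where 8.66% of all genes rose and 9.39% fell. In LNCaP 8 rose and 3 fell (13.4% and 12.5% of all genes), and with DHT 5 rose and 10 fell (13.4% and 19.4% of all genes). In C42B the largest changes were those of the laminin-binding integrin chain ITGA6 (0.44, limma adjusted p = 0.021) and the Norrin receptor FZD4 (−0.42, adjusted p = 0.0040), then SDCBP, the syntenin that binds CD63 (0.28), and EGFR (−0.28). In LNCaP they were IGSF8, an immunoglobulin-type partner of CD9 and CD81 (0.64, adjusted p = 2.1e-04), ITGA6 (0.51), NOTCH1 (−0.44) and the syndecan SDC4 (0.41). With DHT the collagen-binding integrin chain ITGA2 fell by 1.35 and SDC4 fell by 1.21, while EGFR rose by 1.06 and ITGAV by 0.63. The difference between the lines, C42B minus LNCaP, passed for 5 partners and was negative for all (6.07% of all genes). IGSF8 came first (−0.43 ± 0.09, limma adjusted p = 0.0063). A negative difference is not always a weaker response in C42B. FZD4 changed by −0.42 in C42B and −0.06 in LNCaP, and EGFR by −0.28 and 0.01.

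The tetraspanins with other symbols, UPK1A, UPK1B, PRPH2 and ROM1, gave 2 rises with siLSD1 in C42B, of ROM1 (0.30, limma adjusted p = 0.041) and of UPK1A, dim in both groups (adjusted p = 0.048), and none in the other comparisons. TM4SF1, of the separate L6 family whose older symbols many tetraspanins shared, rose by 0.32 with siLSD1 in C42B (adjusted p = 0.0047) and fell by 1.28 in LNCaP (adjusted p = 1.2e-05). The difference between these effects was 1.60 ± 0.08 (adjusted p = 2.8e-07), and with DHT it rose by 1.52 (adjusted p = 2.1e-08).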

How the data were processed

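The deposited table holds linear-scale intensities per probe set (4.34 to 36333); per the submitters' processing notes the authors used RMA from affy, with no version given. Labelling kits of a high and a low RNA input are named without their samples, so kit was not a term. Log2 was taken. Of the probe sets, 41091 name 1 gene, 1801 several and 11721 none, and 62 are controls. The brightest 1-gene probe set stood for each gene, and no dim gene was removed. Each experiment was fitted on its own arrays with lmFit and eBayes of limma 3.58.1 (R 4.3.3), two-sided, with Benjamini-Hochberg adjustment over 19775 genes, and the line difference as a contrast over the 12 siRNA arrays. Errors of fold changes are SE. The fit was tested on simulated data. Tables used Python 3.11.15 and pandas 2.3.3.

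The family, its role groups, the partner and marker lists and the alternatives were chosen with earlier results of these data known. Members passing any test are named with their values, with at most 4 partners per comparison and ADAM10 beside them. The number of arrays limits precision. Alternatives were other probe-set rules, median centring, quantile normalization, a filter to bright genes, a robust eBayes with a trend, a joint fit of the 20 arrays, arrayWeights, a replicate block and leaving out each array. KDM1A was also tested by exact permutation (two-sided p = 0.1 in each line, the smallest 3 arrays against 3 allow, and 0.029 with DHT, the smallest for 4 against 4). Between replicate arrays the log2 differences had SDs of 0.12 to 0.19, and no arrays were identical throughout. Replicate pairs of the C42B siRNA arrays shared exactly equal values for 147 to 220 genes, against 1 to 36 in the other groups. In C42B the median and highest siLSD1 values were equal for TSPAN8 and for TSPAN7, which narrows their spread. The source of these ties was not tested.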

Additional observations from a re-analysis of the deposited data

Results flagged for a closer look

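In the androgen experiment, whose groups hold 4 arrays, 7 of 58 groups of a member had 1 array farther from the rest than Dixon's 95% critical value of 0.829 for the ratio of gap to range; chance gives about 1 in 20. In DHT arrays these were CD82 (replicate 3 at 7.94, the others at 7.79 to 7.81, ratio 0.849), TSPAN13 (replicate 4 at 13.05, the others at 12.88 to 12.90, ratio 0.897) and TSPAN32 (replicate 1 at 5.80, the others at 5.98 to 5.99, ratio 0.984). In vehicle arrays they were CD151 (replicate 2 at 9.93, the others at 9.79 to 9.81, ratio 0.837), TSPAN1 (replicate 4 at 9.48, the others at 9.63 to 9.66, ratio 0.873), TSPAN11 (replicate 2 at 5.96, the others at 6.32 to 6.33, ratio 0.985) and TSPAN3 (replicate 3 at 11.83, the others at 11.72 to 11.73, ratio 0.917). The high DHT array of TSPAN13 and the high vehicle array of TSPAN3 can be left out without ending either call.

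The effect of siLSD1 differed between the lines, C42B minus LNCaP, for TSPAN8 (0.79, limma adjusted p = 0.0022), TSPAN1 (0.32, adjusted p = 0.018), TSPAN33 (−0.33, adjusted p = 0.018) and TSPAN9 (−0.48, adjusted p = 0.0051). The TSPAN8 value rests on dim C42B controls, so which line rose more is not settled. The second TSPAN9 probe set did not pass for the difference (−0.07, limma adjusted p = 0.69). Line and serum differ together in this comparison and cannot be told apart.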

How the results depend on the processing

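Of 31 calls of a member in a comparison, 20 held under every alternative run and none of 503 recomputed values turned round. Some alternatives keep the fold change of the main fit, so its direction could not turn under them. These are the robust eBayes with a trend, the joint fit, the replicate block, the bright-gene filter and the fit of every probe set. That last fit was read for the brightest probe set of each member only. The second probe sets of CD82 and TSPAN9, which did not pass in LNCaP, therefore ended no call. Leaving out each array in turn gave 5 to 8 members higher and 1 lower with siLSD1 in C42B, 6 to 9 higher and 2 lower in LNCaP, 1 to 3 higher and 4 to 5 lower with DHT, and 1 to 3 higher and 1 to 2 lower for the difference between lines. Over all genes it gave 958 to 1975 higher and 949 to 1987 lower in C42B, 1949 to 2955 and 1843 to 2689 in LNCaP, 2253 to 2517 and 3262 to 3647 with DHT, and 738 to 1483 and 821 to 1577 for the difference; KDM1A changed by −2.47 to −2.36 in C42B, −2.84 to −2.70 in LNCaP and 0.13 to 0.17 with DHT (adjusted p = 0.057 without vehicle replicate 4). With DHT, averaging the probe sets of a gene gave 4 members higher and 2719 of all genes higher. For eBayes with trend and robust these counts were 4 and 2820, and for median centring 6 and 4530. For the difference, 4 members were higher with eBayes with trend and robust, which gave 1480 genes higher and 1491 lower. With arrayWeights, 5 members were higher, and 1726 genes were higher and 1831 lower. The causes of these shifts were not tested.

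The replicate numbers are shared between groups, and deviations from the group means were correlated between arrays. Arrays of the same number gave −0.096 to 0.18 in C42B, −0.019 to 0.20 in LNCaP and −0.075 to 0.10 with DHT. Arrays of different numbers gave −0.24 to 0.14, −0.20 to 0.19 and −0.10 to 0.15. The ranges overlap, so whether a number marks a shared day or plate is not settled. With the replicate number as a block, 7 members were higher and 1 lower in C42B, 8 and 2 in LNCaP, 2 and 4 with DHT and 2 and 2 for the difference. Over all genes the block gave 1381 higher and 1407 lower in C42B and 2575 and 2353 in LNCaP. It gave 2468 and 3516 with DHT and 978 and 1031 for the difference. Signal over background limits TSPAN7, TSPAN8, TSPAN12 and the leukocyte members, whose dim groups give bounds or no fold.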
